A study of Mus musculus with 4 samples.

Results

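Of 26525 cells in 4 single-cell RNA sequencing libraries of spinal cord from mice with experimental autoimmune encephalomyelitis (EAE, an autoimmune model of multiple sclerosis), 169 were endothelial cells (ECs) chosen by the summed counts of Trp53i11, Tubb6 and Apln. Trp53i11 encodes a p53-inducible protein, Tubb6 a β-tubulin and Apln the secreted peptide apelin. The members were chosen by the unique molecular identifiers (UMIs, each standing for 1 captured RNA molecule) counted in these same cells. A cell had at least 2000 UMIs, under 10% of them mitochondrial, and an EC had at least 5 UMIs of Cldn5, Cdh5, Egfl7 and Esam, at most 2 of the leukocyte genes Ptprc, Laptm5 and Coro1a and at most 1 of the mural genes Pdgfrb, Kcnj8 and Abcc9. A member was an EC with at least 5 UMIs of Trp53i11, Tubb6 and Apln together, at most 2 of the arterial genes Bmx, Sema3g, Gkn3 and Hey1, and none of the venous gene Ackr1. Angpt2, which encodes angiopoietin-2 (Ang2), was not used to choose them. There were 25 members among 2934 ECs in mIgG1 and 34 among 3470 in Ang2 Ab, and 44 among 3533 in Ctrl and 66 among 2401 in EC-Ang2, from 12338 ECs in all.

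When a vessel sprouts, tip cells at its front extend protrusions, loosen and rebuild the basement membrane and secrete factors that act on the cells behind them. Angpt2 and Apln are among the genes that tip cells are known for. Ang2 binds the EC receptor Tie2 (encoded by Tek) and can act against Ang1, its relative that keeps vessels stable. Capillary ECs of the healthy spinal cord do not sprout, and they carry the transporters and junctions of the blood-brain barrier (BBB).

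Each condition was 1 library. The mIgG1 and Ang2 Ab libraries came from wild-type C57Bl/6JOlaHsd mice, 15 weeks old, that received an isotype control or an Ang2-blocking antibody from EAE induction until 14 days post immunization (dpi). The EC-Ang2 library came from C57Bl/6JCrl mice, 12 to 14 weeks old, that carried VE-cadherin-tTA and Tet-OS-Ang2 and so expressed an Ang2 transgene in ECs from the VE-cadherin promoter. Its Ctrl library came from littermates with only 1 of these transgenes, and both were taken at 12 dpi. All mice were immunized with MOG35-55 in complete Freund's adjuvant with pertussis toxin, at a lower dose of the toxin in the transgenic pair, and doxycycline had been given to the pregnant mothers of that pair until birth. CD45+ and CD31+ cells were sorted in equal numbers for each library, so that shares are given within ECs and not within tissue. The number of mice behind a library was not given in the sources used here. With 1 library per condition no test was possible, so differences are described by their size. Brackets give exact 95% intervals for counting error, which leave out the variation between mice. For levels and their ratios UMIs were summed over cells, so these intervals also leave out the variation between cells.

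The label of the cells was checked against the data first. Apln was found in only 37 of the 169 members (21.9%), 4 of them in mIgG1 and 8 in Ang2 Ab, and 7 in Ctrl and 18 in EC-Ang2. Tubb6 was found in 159 members and Trp53i11 in 116, while 25 carried all 3 genes and in 45 Tubb6 was the only one of the 3 that was counted. The 45 were spread unevenly, with 4 in mIgG1 and 10 in Ang2 Ab, and 22 in Ctrl and 9 in EC-Ang2. Esm1, a secreted proteoglycan often used to mark tip cells, had 2 UMIs in the Ang2 Ab members and none in those of the other libraries. Plvap, the diaphragm protein of permeable vessels, had 2 UMIs in mIgG1 and none elsewhere, and the apelin relative Apela had none in any library. The proliferation gene Mki67 had 4 UMIs in the mIgG1 members and none in the others, and only 1 member, in mIgG1, had UMIs of 3 or more of 12 cell cycle genes. Trp53i11 was found in 84% of members in mIgG1 but in 43.2% in Ctrl. No name that rests on 1 of these genes therefore held for all the cells, and they are called members of the gate.

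The promoters of Trp53i11 and Apln are shown because these genes chose the cells, and those of Igfbp3 and Klf4 because they were among the genes that set the members apart from other ECs in the results that follow. The sequences are from RefSeq on GRCm38.p6 and run 5′ to 3′ from 250 bases before to 50 after the annotated start. Trp53i11 lies at chr2:93187298-93187597 on the plus strand, and Apln at chrX:48034804-48035103, Igfbp3 at chr11:7213874-7214173 and Klf4 at chr4:55532426-55532725 on the minus strand. Since several genes described here are known to respond to low oxygen, both strands were searched for ACGTG, a form of the core of the hypoxia response element. Its other form, GCGTG, was not searched. Capitals mark a match of ACGTG, which among these 4 occurred only in Klf4, where ACGTG overlaps its reverse complement CACGT. The letters occurred in 19.7% of 27025 promoters of this length (5315 promoters), and a match is a description of the sequence, not a site.
Trp53i11: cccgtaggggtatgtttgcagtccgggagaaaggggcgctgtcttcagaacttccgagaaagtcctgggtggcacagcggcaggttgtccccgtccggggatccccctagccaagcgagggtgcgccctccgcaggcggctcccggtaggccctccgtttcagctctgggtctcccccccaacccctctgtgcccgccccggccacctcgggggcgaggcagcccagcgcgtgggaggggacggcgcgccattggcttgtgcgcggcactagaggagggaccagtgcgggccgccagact
Apln: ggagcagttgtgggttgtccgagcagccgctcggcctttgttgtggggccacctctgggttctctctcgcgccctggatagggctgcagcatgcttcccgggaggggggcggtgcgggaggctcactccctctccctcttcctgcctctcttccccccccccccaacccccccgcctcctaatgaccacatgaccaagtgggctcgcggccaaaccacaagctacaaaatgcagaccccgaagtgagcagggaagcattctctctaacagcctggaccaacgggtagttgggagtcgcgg
Igfbp3: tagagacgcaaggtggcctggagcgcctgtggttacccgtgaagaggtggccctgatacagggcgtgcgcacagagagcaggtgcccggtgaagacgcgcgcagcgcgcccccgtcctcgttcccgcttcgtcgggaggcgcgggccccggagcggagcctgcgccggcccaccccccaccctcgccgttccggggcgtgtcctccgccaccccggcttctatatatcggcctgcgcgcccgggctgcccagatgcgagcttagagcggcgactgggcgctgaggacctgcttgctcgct
Klf4: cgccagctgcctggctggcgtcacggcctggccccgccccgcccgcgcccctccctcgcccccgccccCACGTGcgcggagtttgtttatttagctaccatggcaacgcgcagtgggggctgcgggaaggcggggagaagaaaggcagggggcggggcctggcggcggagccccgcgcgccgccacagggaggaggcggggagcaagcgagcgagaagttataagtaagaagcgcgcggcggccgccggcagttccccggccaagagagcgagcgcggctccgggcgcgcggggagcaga

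Members had a higher median depth than the capillary ECs that did not reach the UMI sum. Their median was 8387 UMIs per cell in mIgG1 and 6775 in Ang2 Ab, and 6453 in Ctrl and 7718.5 in EC-Ang2. The ECs that met every term of the gate but the sum of Trp53i11, Tubb6 and Apln, here called other capillary ECs because they had no Ackr1 UMI and at most 2 UMIs of the 4 arterial genes, had medians of 3520.5, 3079, 3928 and 3817 UMIs. The gate made no correction for depth, so other capillary ECs were also matched 1 to 1 to the members by UMI total (matched medians of 8321, 6763, 6447.5 and 7703 UMIs). Free RNA made up an estimated 4.52% to 9.35% of EC UMIs. Between 51 and 77 cell barcodes were shared by a pair of libraries, against 48.7 to 71.0 expected by chance from the barcode list, and 4 members shared a barcode with any cell of another library and none with another member.

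Markers of other cells were low in the members. All 10 endothelial genes outside the gate were present in each library, with a summed level of 8371 CPM (the UMIs of a gene scaled to a common UMI total per class and library) in mIgG1 and 8746 in Ang2 Ab, and 14254 in Ctrl and 10325 in EC-Ang2, and Ly6c1 was the most abundant of them. Of 15 leukocyte genes outside the gate, 12 or 13 had a UMI, summing to 3055 CPM in mIgG1 and 1827 in Ang2 Ab, and 1693 in Ctrl and 1155 in EC-Ang2. In each library these sums lay below those of the other capillary ECs, which were 4397, 3340, 2150 and 1778 CPM. Apoe, a lipid carrier of microglia and macrophages, was the most abundant of the leukocyte genes, and Cd3e, which defines T cells, was at 0. Of 9 mural genes, 4 or 5 had a UMI, with 93.7 CPM in mIgG1 and 151 in Ang2 Ab, and 283 in Ctrl and 75.4 in EC-Ang2, most of it Rgs5. Acta2, Cspg4, Tagln and Myh11 were at 0, while the pericyte gene Rgs5 and the mural genes Vtn, Higd1b and Ndufa4l2 had UMIs in every library. In other capillary ECs the mural genes summed to 440 CPM in mIgG1 and 424 in Ang2 Ab, and 433 in Ctrl and 309 in EC-Ang2. The astrocyte genes Aqp4 and Slc1a2, the oligodendrocyte genes Mag and Mog and the lymphatic gene Prox1 were at 0 in all 4 libraries, and the 8 fibroblast genes together had 0, 1, 1 and 0 UMIs. Of 8 astrocyte genes only Gja1, a gap junction gene that ECs also express, had more than 1 UMI, and of the 8 oligodendrocyte genes Cnp or Mbp led, with summed levels between 32.4 CPM in Ang2 Ab and 82.6 in Ctrl. The 6 lymphatic genes summed to between 25.2 CPM in Ang2 Ab and 61.7 in EC-Ang2, led by Flt4.

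The share of members among all ECs was highest in EC-Ang2. It was 0.852% (0.552 to 1.26) in mIgG1 and 0.980% (0.679 to 1.37) in Ang2 Ab, and 1.25% (0.906 to 1.67) in Ctrl and 2.75% (2.13 to 3.48) in EC-Ang2. The intervals of mIgG1, Ang2 Ab and Ctrl overlapped each other, and that of EC-Ang2 lay above all 3. When every EC was thinned to 2000 UMIs and a sum of at least 2 UMIs was required, the share was 1.5% (1.09 to 2.01) in mIgG1 and 2.13% (1.68 to 2.67) in Ang2 Ab, and 1.70% (1.30 to 2.18) in Ctrl and 3.04% (2.39 to 3.81) in EC-Ang2. Only the sum of Trp53i11, Tubb6 and Apln used the thinned counts, and the other terms of the gate, Ackr1 among them, kept the full depth. The EC-Ang2 interval then overlapped that of Ang2 Ab, and stayed above those of mIgG1 and Ctrl. The EC-Ang2 share was 2.21-fold that of Ctrl, a log2 ratio of 1.14 (0.57 to 1.73), and the Ang2 Ab share 1.15-fold that of mIgG1, a log2 ratio of 0.20 (-0.59 to 1.01). The interval of the latter includes both a lower and a higher share.

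These shares depended on the Ackr1 term. ECs with at least 5 UMIs of the 3 genes, whatever their Ackr1 or arterial genes, were 7.94% of ECs in mIgG1 and 4.64% in Ang2 Ab, and 2.86% in Ctrl and 17.2% in EC-Ang2. Most of them carried Ackr1, namely 87.6% in mIgG1 and 78.3% in Ang2 Ab, and 54.5% in Ctrl and 80.7% in EC-Ang2. So counted, the Ang2 Ab share was lower than that of mIgG1, with a log2 ratio of -0.78 (-1.07 to -0.48), and the EC-Ang2 share was 6.03-fold that of Ctrl, a log2 ratio of 2.59 (2.28 to 2.92). The share of ECs with an Ackr1 UMI differed in the same directions, from 48.0% in mIgG1 to 34.6% in Ang2 Ab and from 24.6% in Ctrl to 57.0% in EC-Ang2. Among immune cells, in which free RNA adds to any Ackr1 of their own, 26.31% had an Ackr1 UMI in mIgG1 and 20.03% in Ang2 Ab. Their values were 14.73% in Ctrl and 34.04% in EC-Ang2, the same order of libraries as in ECs. The part of free Ackr1 RNA in these EC shares, and in the cells left out by the Ackr1 term, was not tested. Ackr1 ECs with a sum of at least 5 were also the deepest cells, with medians of 13737.5, 11817, 12154 and 15905 UMIs. Within the ECs with no Ackr1 UMI and at most 2 UMIs of the 4 arterial genes, members made up 1.95% in mIgG1 and 1.71% in Ang2 Ab, and 1.89% in Ctrl and 7.84% in EC-Ang2.

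**Figure D1:**
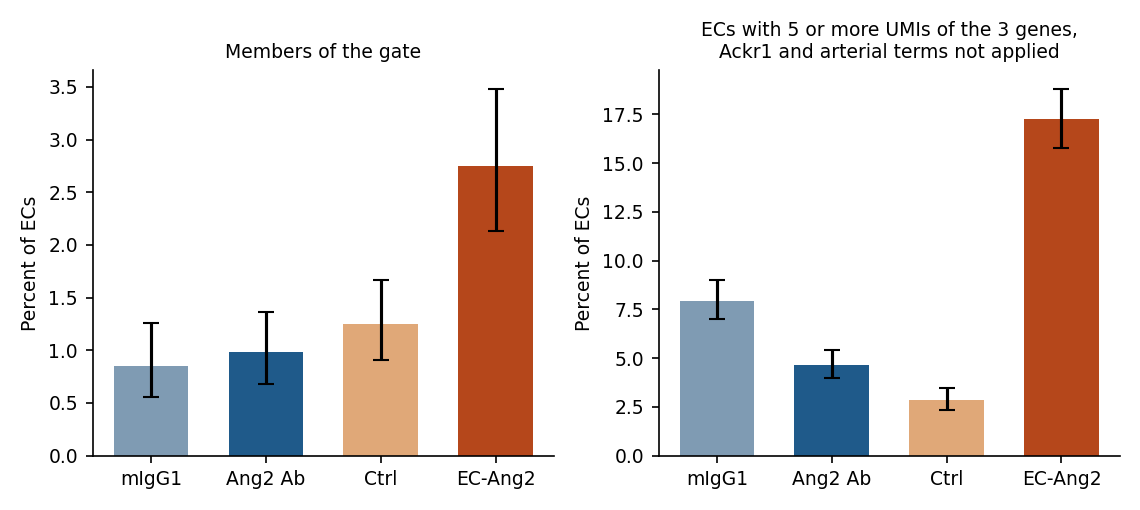
Share of ECs in each library, in percent, for the members of the gate (left) and for all ECs with at least 5 UMIs of Trp53i11, Tubb6 and Apln (right). Bars are 1 library each and error bars exact 95% binomial intervals for counting error; EC-Ang2 stands above the other libraries in both panels, while Ang2 Ab lies below mIgG1 only on the right.

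The gate genes are described without comparison, since they chose the cells. The level of Trp53i11 in members was 285 CPM in mIgG1 and 321 in Ang2 Ab, and 213 in Ctrl and 435 in EC-Ang2, and that of Tubb6 was 562, 814, 883 and 583 CPM. Apln was at 40.1 CPM in mIgG1 and 295 in Ang2 Ab, and 57.2 in Ctrl and 106 in EC-Ang2, from 9, 82, 18 and 62 UMIs, of which 1 Ang2 Ab member held 30. The sum of the 3 genes had a median of 7 UMIs in mIgG1, Ctrl and EC-Ang2 and 8 in Ang2 Ab, and its highest values were 14 in mIgG1 and 77 in Ang2 Ab, and 23 in Ctrl and 43 in EC-Ang2. The gate therefore took many cells near its limit. Exactly 5 UMIs were counted in 36 members, and just outside, with 4 UMIs, stood 9 cells of mIgG1 and 24 of Ang2 Ab, and 15 of Ctrl and 21 of EC-Ang2.

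Angpt2 was higher in the members than in other capillary ECs of every library. In mIgG1 it was at 80.3 CPM in members and 44.6 in other capillary ECs, in Ang2 Ab at 1647 and 344, in Ctrl at 213 and 73.7, and in EC-Ang2 at 2187 and 1028. The ratios were 1.80-fold in mIgG1 (log2 0.85, 0.07 to 1.54) and 4.79-fold in Ang2 Ab (log2 2.26, 2.11 to 2.41), and 2.89-fold in Ctrl (log2 1.53, 1.15 to 1.89) and 2.13-fold in EC-Ang2 (log2 1.09, 1.00 to 1.18). Angpt2 was counted in 9 of 25 members in mIgG1 and 30 of 34 in Ang2 Ab, and 17 of 44 in Ctrl and 54 of 66 in EC-Ang2. The median member had 0 UMIs in mIgG1 and 5 in Ang2 Ab, and 0 in Ctrl and 4.5 in EC-Ang2. A few cells held much of the total, since the 3 highest members carried 10 of 18 UMIs in mIgG1 and 256 of 457 in Ang2 Ab, and 29 of 67 in Ctrl and 403 of 1276 in EC-Ang2. Without the 3 highest cells of each class the log2 ratio was -0.0059 in mIgG1 and between 0.90 and 1.48 in the other libraries. In mIgG1 this left out 3 of 25 members but only 3 of 1256 other capillary ECs, so the classes were not treated alike. Without the highest cell of the members and of the depth-matched cells, the mIgG1 levels were 55.2 and 14.6 CPM.

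Against depth-matched cells the higher level was not seen in EC-Ang2. Against cells of the same depth the Angpt2 log2 ratio was 1.51 (0.12 to 3.13) in mIgG1 and 1.60 (1.32 to 1.88) in Ang2 Ab, and 1.72 (0.98 to 2.52) in Ctrl and 0.021 (-0.09 to 0.14) in EC-Ang2. In EC-Ang2, 1 of the 66 matched cells held 338 of their 1230 UMIs, and without the highest cell of each group the levels were 1902 CPM in members and 1629 in matched cells. By cells, Angpt2 was counted in 36% of members and 12% of matched cells in mIgG1, 88.2% and 64.7% in Ang2 Ab, then 38.6% and 22.7% in Ctrl and 81.8% and 53.0% in EC-Ang2. When every cell was thinned to 2000 UMIs, Angpt2 remained in 12% of members and 5.81% of other capillary ECs in mIgG1, 70.6% and 24.9% in Ang2 Ab, then 31.8% and 8.12% in Ctrl and 62.1% and 24.0% in EC-Ang2. Immune cells, in which free RNA adds to any Angpt2 of their own, gave 0.0806%, 1.26%, 0.143% and 2.41% in the same order after thinning, with full median depths of 7672.5, 6340, 6941 and 7582 UMIs. In EC-Ang2 the transcripts of the transgene and of the mouse gene cannot be told apart.

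Angpt2 also varied with where a cell stood in the gate. Members with exactly 5 UMIs of the 3 genes had 29.0 CPM of Angpt2 in mIgG1 and 1250 in Ang2 Ab, and 426 in Ctrl and 2697 in EC-Ang2, and cells with 4 UMIs, just outside the gate, had 52.3, 788, 98.2 and 3558 CPM. The mIgG1 value at 5 UMIs rested on 1 Angpt2 UMI in 4 cells, and in EC-Ang2 1 of the 12 cells held 195 of their 233 Angpt2 UMIs. Cells with none of the 3 genes had 32.5, 261, 58.5 and 616 CPM. Members with Apln had 3171 CPM of Angpt2 in Ang2 Ab and members without Apln 890, whereas in EC-Ang2 the order was reversed, with 1297 and 2543 CPM. In Ang2 Ab the 2 members with the largest sums of the gate genes, 77 and 53 UMIs, held 101 and 88 of the 292 Angpt2 UMIs of its 8 members with Apln. In mIgG1 the values were 91.1 and 78.4 CPM and in Ctrl 285 and 195. Against Ackr1 ECs of the same UMI sum, the Angpt2 log2 ratio of members was -0.59 (-1.36 to 0.09) in mIgG1 and 1.46 (1.30 to 1.63) in Ang2 Ab, and 0.66 (0.20 to 1.13) in Ctrl and 0.62 (0.53 to 0.71) in EC-Ang2.

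**Figure D2:**
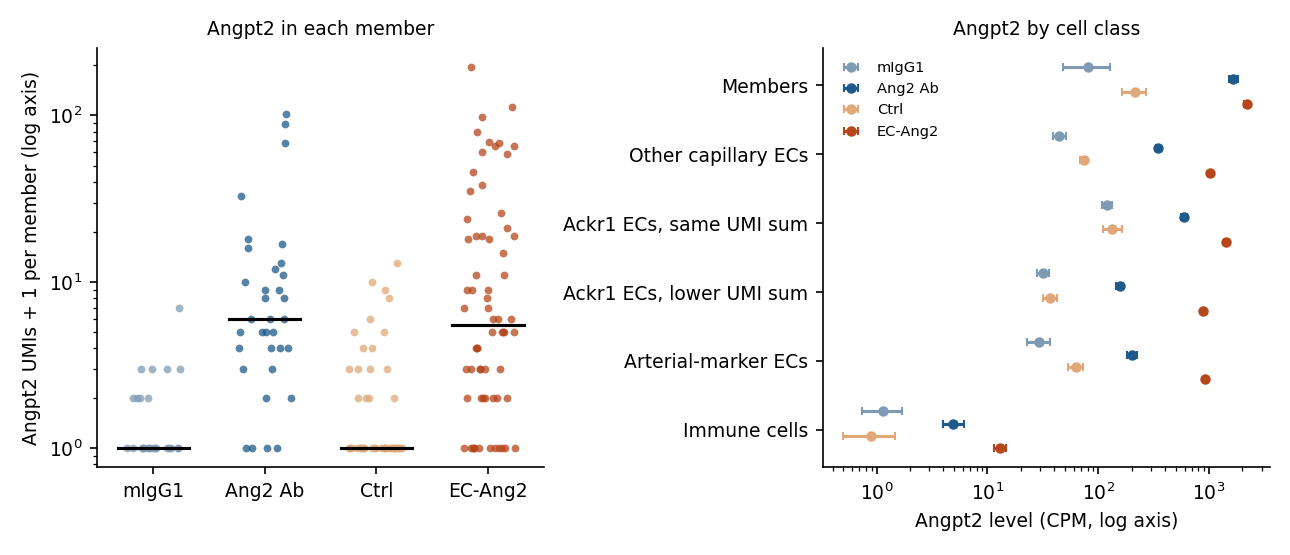
Left, Angpt2 UMIs plus 1 in each member on a log axis, 1 point per cell, with the median as a bar; the medians are 0 UMIs in mIgG1 and Ctrl, 5 in Ang2 Ab and 4.5 in EC-Ang2. Right, Angpt2 level in CPM on a log axis by cell class and library with exact 95% intervals for counting error; members had the highest level of the classes in Ang2 Ab, Ctrl and EC-Ang2, and Ackr1 ECs of the same UMI sum in mIgG1.

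The members were then compared with other capillary ECs across all genes. A gene was called when it was at least 1.5-fold higher, or lower, in all 4 libraries, with a UMI in 10% of the cells of 1 class and 50 UMIs in both classes together in each library. Of 5293 genes so measured, 69 were higher in members (1.3%) and 133 lower (2.51%). The same cells had been chosen on their counts, so these are descriptions of the class. Against depth-matched cells 1353 genes were measured, of which 6 were higher (0.443%) and 20 lower (1.48%). All 26 of these were also among the 69 and 133, of which 28 and 50 could be measured there.

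The genes with the largest ratios are given first. Igfbp3, which binds insulin-like growth factors, was at 263 CPM in members of mIgG1 and 357 in Ang2 Ab, and 397 in Ctrl and 358 in EC-Ang2. In other capillary ECs it was at 27.5, 60.5, 69.9 and 86.8 CPM, so that the log2 ratios ran from 2.05 in EC-Ang2 to 3.26 in mIgG1. Pdlim1, an actin-associated LIM protein, had log2 ratios of 3.01 in mIgG1 and 2.38 in Ang2 Ab, and 3.11 in Ctrl and 1.81 in EC-Ang2. Fscn1, which bundles actin in cell protrusions, had 3.66, 2.95, 2.61 and 1.78 in the same order, and Upp1, an enzyme of uridine breakdown, had 2.27, 2.57, 2.29 and 1.71. For Fscn1, Igfbp3 and Pdlim1 the level in other capillary ECs was highest in EC-Ang2, which was the library with the smallest ratio. The next genes were Odc1, the rate-limiting enzyme of polyamine synthesis, Uchl1, a ubiquitin hydrolase, Rnd1, a small GTPase, Hid1, Glipr2, the tetraspanin Cd82, the lipoprotein lipase inhibitor Angptl4 and the α-tubulin Tuba1c. The lowest of their log2 ratios was 1.02, for Tuba1c in mIgG1. Against depth-matched cells only Igfbp3, Rnd1, Angptl4 and Upp1 of these 12 genes could be measured. The smallest log2 ratio over the libraries was then 0.60 for Igfbp3, 0.75 for Rnd1, 0.51 for Angptl4 and 0.34 for Upp1, each below its smallest value against all other capillary ECs.

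Among the lower genes, Slc6a6, the taurine transporter, was at 232 CPM in members and 999 in other capillary ECs of mIgG1, 39.6 and 516 in Ang2 Ab, then 191 and 678 in Ctrl and 56.6 and 458 in EC-Ang2, with log2 ratios of -2.11, -3.70, -1.83 and -3.02. Slc22a8, an organic anion transporter of brain capillaries, had log2 ratios of -1.67, -2.46, -2.62 and -2.39. Klf4, a transcription factor induced by laminar flow, had -1.55, -1.81, -1.82 and -1.74, and remained at -1.12 or below against depth-matched cells. Id2, a target of BMP signaling, had between -1.80 in Ctrl and -1.43 in EC-Ang2, and Palm and Eps8l2, proteins of the membrane and actin skeleton, were lower in each library as well. Rad54b, a DNA repair gene, and Stmn2, a tubulin-binding protein that also marks arterial ECs, rested on few UMIs in members. Rad54b had 2 UMIs in mIgG1 and 1 in each of the others, and Stmn2 had 2, 4, 0 and 1, and its Ctrl log2 ratio was -2.55 with the members set at a floor of 3 counts.

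**Figure D3:**
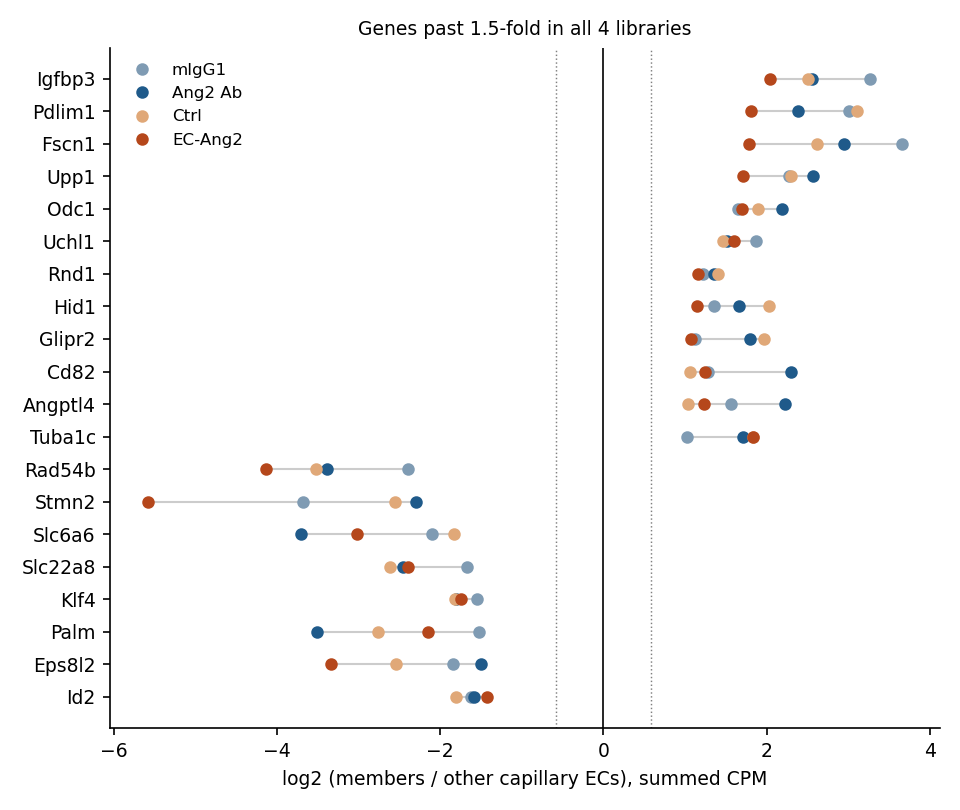
Log2 ratio of members over other capillary ECs for the 12 higher and 8 lower named genes, 1 point per library; dotted lines mark 1.5-fold. All points of a gene lie on the same side of the dotted lines, and EC-Ang2 has the smallest ratio for Igfbp3, Pdlim1, Fscn1 and Upp1.

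By role, genes of tip cells and sprouting were higher in part. Of 17 measured genes of a list of 26, 5 were higher in all 4 libraries, where 1.3% of all genes were, and none lower, with a median log2 ratio of 0.70 against -0.02 over all genes measured. The 5 were Angpt2, Fscn1, Igfbp3, Marcksl1, an actin regulator, and Adm, the vasodilator peptide adrenomedullin. Adm was at 241 CPM in members of mIgG1 and 584 in Ang2 Ab, and 321 in Ctrl and 830 in EC-Ang2, and at 123, 91.2, 114 and 219 in other capillary ECs. The other 12 genes did not pass in all libraries, among them Dll4, the Notch ligand of tip cells, at 44.6, 75.7, 85.8 and 39.4 CPM in members and 48.5, 64.8, 47.9 and 61.6 in other capillary ECs. Against depth-matched cells 8 genes of the list could be measured, with a median of 0.52. Only Igfbp3 of them was higher, where 0.443% of all genes were.

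Of 6 measured genes of the angiopoietin list of 10, Angpt2 and Angptl4 were higher, where 1.3% of all genes were, and none lower, where 2.51% were, and no receptor passed. Against depth-matched cells none of 5 measured genes of the list passed in all libraries. Tek, the receptor Tie2, was at 107, 90.1, 98.5 and 118 CPM in members of mIgG1, Ang2 Ab, Ctrl and EC-Ang2 and at 240, 203, 177 and 162 in other capillary ECs, which is lower in each library but by less than 1.5-fold in EC-Ang2. Tie1 was at 169, 105, 127 and 129 CPM in members and 181, 153, 172 and 169 in other capillary ECs. Angpt1 and Angpt4 had no UMI in members. Among 9 measured VEGF receptor and guidance genes only Sema3c, a semaphorin, passed, being lower, where 2.51% of all genes were. Flt1 and Kdr did not pass. Aplnr, the apelin receptor, had 21 UMIs in mIgG1 members and 0 in Ang2 Ab, and 5 in Ctrl and 9 in EC-Ang2, too few for the comparison. Of 6 Notch genes only Jag1 passed, being lower, where 2.51% of all genes were.

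Genes of the basement membrane and of the cytoskeleton were higher in part. Of 16 measured matrix genes 5 were higher, where 1.3% of all genes were, and none lower, with a median of 0.61. Against depth-matched cells only Serpinh1 of 9 was higher, where 0.443% of all genes were, with a median of 0.28. Col4a1 and Col4a2, the chains of collagen IV, were at 517 and 343 CPM in members of mIgG1, 555 and 418 in Ang2 Ab, then 413 and 327 in Ctrl and 597 and 382 in EC-Ang2. In other capillary ECs Col4a1 was at 261, 251, 213 and 298 CPM, and Col4a2 at 204, 217, 170 and 219. Nid1, a basement membrane linker, and Serpinh1 and Plod1, which help to fold and modify collagen, were the others. Of 24 measured cytoskeletal genes 5 were higher (Tmsb10, Tuba1c, Marcksl1, S100a6 and S100a11), where 1.3% of all genes were, and none lower, with a median of 0.64. Against depth-matched cells none of 18 passed in all libraries, with a median of 0.46 against 0.06 over all genes measured. Tmsb10, which sequesters actin monomers, was at 5214, 4609, 2516 and 3626 CPM in members and 2005, 1779, 1371 and 2111 in other capillary ECs. Glycolytic and hypoxia genes gave 3 higher of 18 (Gapdh, Pkm and Adm), where 1.3% of all genes were, none lower, and a median of 0.39. Against depth-matched cells 1 of 15, Pkm, was higher, where 0.443% of all genes were.

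Genes of the BBB were lower in part. Of 28 measured transport and junction genes 10 were lower in all libraries, where 2.51% of all genes were, and none higher, with a median of -0.77. The 10 were the transporters Slco1a4, Slco1c1, Abcb1a, Slc22a8, Slc19a3 and Slc6a6, and Spock2, Itm2a, Ddc and Foxq1. Slco1a4, an organic anion transporter, was at 821 CPM in members and 1751 in other capillary ECs of mIgG1, 580 and 1718 in Ang2 Ab, then 867 and 1895 in Ctrl and 483 and 1265 in EC-Ang2. Slc2a1, the glucose transporter, did not pass, with 2783, 2324, 5067 and 2786 CPM in members and 3565, 3772, 4775 and 3598 in other capillary ECs. Cldn5, a tight junction gene that was part of the EC gate, was at 7056, 4537, 5766 and 4903 CPM and 8442, 6703, 6229 and 6247. Of 18 BBB genes measured against depth-matched cells, 4 remained lower (Slco1a4, Slc6a6, Spock2 and Itm2a), where 1.48% of all genes were, with a median of -0.58.

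Genes of capillary identity were lower in part. Of 9 capillary-arterial genes 5 were lower (Cxcl12, Ddc, Sema3c, Tgfb2 and Glul), where 2.51% of all genes were, with a median of -1.52. Of 8 capillary-venous genes 2 were lower (Car4 and Spock2), where 2.51% of all genes were, with a median of -0.53. Against depth-matched cells Sema3c and Glul of 5 capillary-arterial genes and Spock2 of 5 capillary-venous genes were lower, where 1.48% of all genes were. Cxcl12, a chemokine of arterial-side capillaries, was at 227, 205, 222 and 207 CPM in members, a narrow range, and at 811, 691, 1095 and 417 in other capillary ECs. Of 9 venous genes outside the gate 2 were higher, Vcam1 and Lrg1, where 1.3% of all genes were, and none lower. Against depth-matched cells none of 6 passed. Vcam1, an adhesion molecule for leukocytes, was at 303, 177, 225 and 290 CPM in members and 168, 96.2, 63.6 and 192 in other capillary ECs. Of 20 early response genes 10 were lower (Fos, Fosb, Jun, Junb, Ier2, Dusp1, Klf2, Klf4, Hspa1a and Btg2), where 2.51% of all genes were, with a median of -0.88. Against depth-matched cells 3 of 19 were lower (Fos, Klf4 and Btg2), where 1.48% of all genes were, with a median of -0.69. Of 13 TGF-β and BMP genes 3 were lower (Id1, Id2 and Tgfb2), where 2.51% of all genes were. Of 11 Wnt targets 1 was lower at the same share of all genes, namely Sox17. Sox17 also marks arteries and was lower with Stmn2 among 4 measured arterial genes. None of 9 TGF-β and BMP genes and of 4 Wnt targets passed against depth-matched cells. Of 28 class I MHC and interferon genes only Iigp1, an interferon-induced GTPase, was higher in all libraries, where 1.3% of all genes were. The median of the 28 ran from -0.07 in Ctrl to 1.02 in Ang2 Ab, and none of 22 passed against depth-matched cells.

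**Figure D4:**
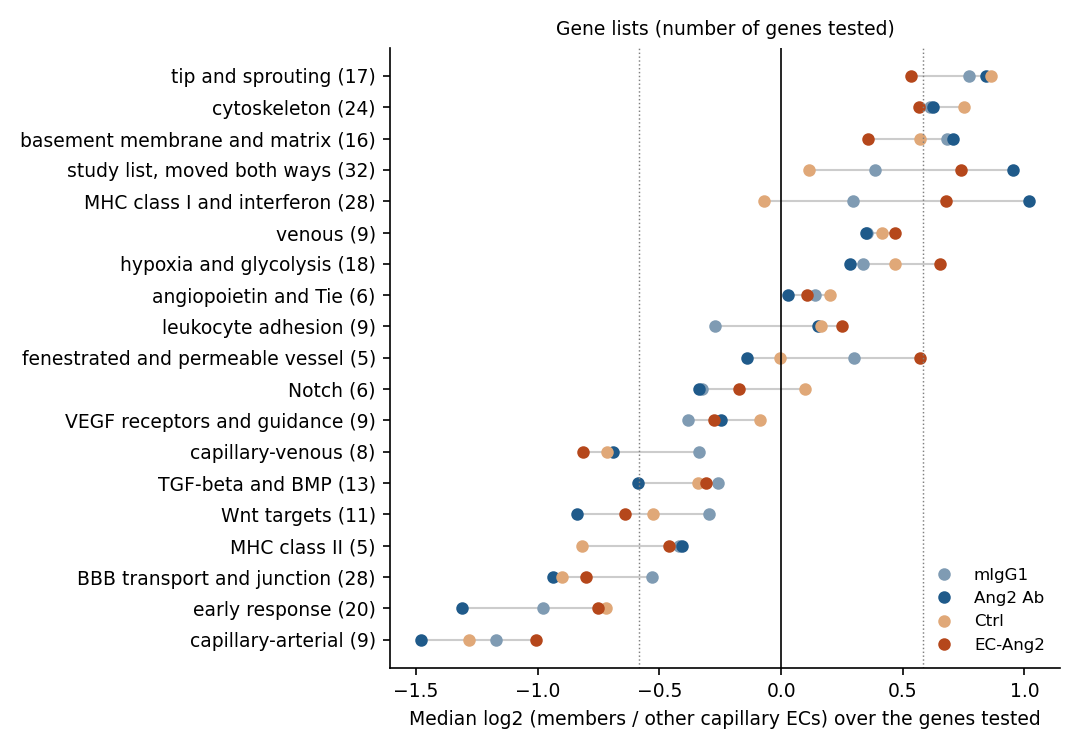
Median log2 ratio of members over other capillary ECs for each gene list with at least 5 genes measured, 1 point per library, with the number of genes in brackets and dotted lines at 1.5-fold. Lists above 0 in all libraries are tip and sprouting, cytoskeleton, matrix, venous, hypoxia and glycolysis, angiopoietin and the study's capillary-venous list. Lists below 0 in all are BBB, early response, capillary-arterial, capillary-venous, VEGF receptors and guidance, TGF-β and BMP, Wnt targets and class II MHC.

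Members were also set beside Ackr1 ECs with the same sum of at least 5 UMIs. These are the deeper class, with medians of 13737.5, 11817, 12154 and 15905 UMIs against 8387, 6775, 6453 and 7718.5 in members, and they were not matched by depth. Of 3071 genes measured, 18 were higher in members (0.586%) and 45 lower (1.47%), and none of the 58 higher and 66 lower genes against other capillary ECs that could be measured here was among them in the same direction, which at these shares of all genes is near the background. Of 11 venous genes 7 were lower, where 1.47% of all genes were, among them Nr2f2, Sele, Selp, Vcam1, Lrg1 and Lcn2, although Ackr1 itself chose the groups. Selp, the leukocyte adhesion receptor P-selectin, had 0, 2, 2 and 7 UMIs in the members, or at most 12.0 CPM, against 216, 239, 446 and 375 CPM in Ackr1 ECs. Vcam1, which was higher in members than in other capillary ECs, was at 699, 877, 792 and 889 CPM in Ackr1 ECs. Among the genes higher in members were Cxcl12, Mfsd2a and Sema3c of the capillary-arterial genes, Slco1c1, a thyroid hormone transporter, and Sparcl1, a matrix protein. For Cxcl12 and Slco1c1 the members thus lay between other capillary ECs and Ackr1 ECs, where Cxcl12 was at 94.1, 74.2, 77.9 and 54.2 CPM. The median log2 ratio was 0.14 for matrix genes and 0.40 for tip and sprouting genes, against 0.04 over all genes measured, and of the 11 tip and sprouting genes only Marcksl1 was called, as lower.

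Under Ang2 blockade, 179 of 1669 genes measured in the members were at least 1.5-fold higher in Ang2 Ab than in mIgG1 (10.7%) and 141 lower (8.45%). Genes had a UMI in 10% of the members of 1 library and 50 UMIs in both. Over all genes the members held only 224221 UMIs in mIgG1 and 277504 in Ang2 Ab. Angpt2 itself was highest, at 80.3 CPM in mIgG1 and 1647 in Ang2 Ab (log2 4.36, 3.68 to 5.13). It was higher in other capillary ECs of Ang2 Ab too, with a log2 ratio of 2.95 (2.75 to 3.15). Scgb3a1, a small secreted protein of capillary-venous ECs, was at 1003 and 4458 CPM in members (log2 2.15, 1.95 to 2.36), and its log2 ratio in other capillary ECs was 2.09. Hbegf, an EGF receptor ligand, was at 49.1 and 278 CPM (log2 2.50, 1.58 to 3.56), and Mgp, an inhibitor of BMPs and calcification, at 84.7 and 400 (log2 2.24, 1.53 to 3.02). For Mgp 13 of the 19 mIgG1 UMIs lay in 1 cell. Without the highest cell of each library its log2 ratio was 3.27 (2.08 to 4.76).

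The remaining genes of the upper end were interferon-induced and came from few cells. Rsad2, which encodes the antiviral protein viperin, had 11 UMIs in 8 mIgG1 members and 266 in 8 Ang2 Ab members, with 167 of them in 1 cell (log2 4.29, 3.12 without the highest cell of each library). Cxcl10, a chemokine for T cells, had 13 UMIs in 6 members and 247 in 6, with 122 in 1 cell, and Oasl1 and Cmpk2 had 4 and 3 UMIs in mIgG1 and 62 and 47 in Ang2 Ab. In other capillary ECs their log2 ratios were -0.28 for Rsad2, 0.93 for Cxcl10, -0.01 for Oasl1 and -0.05 for Cmpk2. Across the 28 class I MHC and interferon genes, 7 were higher, where 10.7% of all genes were, and 3 lower, where 8.45% were, in the members, with a median of -0.05, while in other capillary ECs none was higher, where 108 of all 4754 genes were, and 18 were lower, where 101 were, with a median of -0.70. Gbp4, an interferon-induced GTPase, was at 214 CPM in mIgG1 and 360 in Ang2 Ab members, a log2 ratio of 0.75 (0.24 to 1.28), and had -1.11 in other capillary ECs. B2m, the light chain of class I MHC, had -0.26 in members and -0.67 in other capillary ECs. The difference between the classes was not tested.

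Among the lower genes of the blockade pair were transporters and proteins of growth and lipid handling. Slc6a6 was at 232 CPM in mIgG1 and 39.6 in Ang2 Ab members (log2 -2.55, -3.64 to -1.59), and Ptn, the growth factor pleiotrophin, at 468 and 108 (log2 -2.11, -2.75 to -1.52). Both were also lower in other capillary ECs, with log2 ratios of -0.95 and -0.80. Enpp2, the lysophospholipase autotaxin, was at 205 and 43.2 CPM, and Stmn1, which destabilizes microtubules, at 201 and 32.4, with 25 of the 45 mIgG1 UMIs of Stmn1 in 1 cell. Apoe was at 1414 and 559 CPM and Sepp1, a selenium carrier, at 2114 and 876, and the summed level of the leukocyte genes differed in the same direction, as given above, whose part in these values was not tested. Slc7a1, a cationic amino acid transporter, was at 183 and 46.8 CPM in members (log2 -1.96, -2.99 to -1.04) and at 201 and 300 in other capillary ECs. By list, 10 of 21 measured BBB genes were lower, where 8.45% of all genes were, and 1 higher. Among other capillary ECs 2 of 28 were lower, where 101 of all 4754 genes were. Only 4 of 16 Wnt targets could be measured in members, of which Lef1, Nkd1 and Sox17 were lower, where 8.45% of all genes were.

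Under Ang2 overexpression, 270 of 2714 genes measured were higher in EC-Ang2 than in Ctrl members (9.95%) and 232 lower (8.55%). Car2, a carbonic anhydrase, was at 137 CPM in Ctrl and 1791 in EC-Ang2 members (log2 3.71, 3.27 to 4.19), and Angpt2 at 213 and 2187 (log2 3.36, 3.01 to 3.74). In other capillary ECs the log2 ratios were alike in size, at 3.45 (3.37 to 3.53) for Car2 and 3.80 (3.69 to 3.92) for Angpt2. Gbp2, an interferon-induced GTPase, was at 172 and 1274 CPM in members, found in 31.8% of Ctrl and 78.8% of EC-Ang2 members (log2 2.89, 2.49 to 3.32), with a log2 ratio of 1.47 in other capillary ECs. Ubd, a ubiquitin-like modifier induced by cytokines, had no UMI in Ctrl members and 86 in 14 EC-Ang2 members, with 45 of the 86 in 1 cell. With Ctrl set at a floor of 3 counts over the group its log2 ratio was 3.95, or 2.87 without the highest cell. Cxcl9 and Cxcl10, chemokines for T cells, had 2 and 12 UMIs among Ctrl members and 96 and 260 among EC-Ang2 members, where 156 of the Cxcl10 UMIs lay in 1 cell.

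For a pair of genes at the top of this comparison 1 cell held most UMIs. Hbb-bs, a hemoglobin chain of erythrocytes, had 6 UMIs among Ctrl members and 2504 among EC-Ang2 members, of which 2378 lay in 1 cell, with a log2 ratio of 7.82, and of 4.07 (2.67 to 5.96) without the highest cell of each library. Hbb-bs was lower in EC-Ang2 in other capillary ECs (log2 -1.44). Ccl5, a chemokine of T and NK cells, had 8 UMIs among Ctrl members and 841 among EC-Ang2 members, 833 of them in 1 cell, and a log2 ratio of -0.48 (-2.20 to 1.33) without the highest cell of each library.

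Class I MHC and interferon genes were higher nearly throughout the members of EC-Ang2. Of 28 genes measured 26 were higher, 1 lower and 1 within 1.5-fold, with a median of 1.35, where 9.95% of all genes measured were higher. In other capillary ECs 12 of the 28 were higher, where 189 of all 5257 genes were, and none lower, with a median of 0.53. B2m was at 3208 CPM in Ctrl and 6161 in EC-Ang2 members (log2 0.94, 0.84 to 1.04), and had 0.18 in other capillary ECs. H2-K1, a class I heavy chain, was at 750 and 1815 CPM (log2 1.28, 1.07 to 1.49), and Gbp5 at 31.8 and 286 (log2 3.17, 2.26 to 4.26). The exception was Ifit3, at 264 and 168 CPM (log2 -0.65, -1.09 to -0.21), which was higher in other capillary ECs (log2 0.60). Of 32 measured genes of a list that the study drew up for capillary-venous ECs from these libraries, which is not independent evidence, 28 were higher and none lower in members, with a median of 1.36. In other capillary ECs 21 of 33 were higher, where 189 of all 5257 genes were, and none lower, with a median of 0.98. In the blockade pair 3 of 31 genes of that list were higher in members, where 10.7% of all genes were, and 6 lower, where 8.45% were, with a median of -0.07. Among other capillary ECs 24 of 33 were lower, where 101 of all 4754 genes were, with a median of -0.72.

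Other gene groups of the overexpression pair had medians closer to 0. Of 15 tip and sprouting genes 5 were higher (Angpt2, Adm, Fscn1, Marcksl1 and Pgf, a VEGF relative), where 9.95% of all genes were, and 2 lower (Dll4 and Plaur), where 8.55% were, with a median of -0.09. Adm was at 321 CPM in Ctrl and 830 in EC-Ang2 members (log2 1.37, 1.06 to 1.70), and in the blockade pair at 241 and 584 (log2 1.28, 0.82 to 1.75), so that it was higher in the treated or transgenic library of both pairs. Of 21 BBB genes 8 were lower, where 8.55% of all genes were, and 1, Tjp1, higher, with a median of -0.42. Among other capillary ECs 9 of 28 were lower, where 119 of all 5257 genes were. Mfsd2a, a lipid transporter that restrains transcytosis, was at 143 CPM in Ctrl and 27.4 in EC-Ang2 members (log2 -2.38, -3.30 to -1.53), and in the blockade pair at 156 and 64.9 (log2 -1.27, -2.17 to -0.41). Slc6a6 was lower in both pairs as well, with 191 and 56.6 CPM in Ctrl and EC-Ang2 (log2 -1.75, -2.41 to -1.12). Of 18 glycolytic and hypoxia genes 5 were higher (Gpi1, Tpi1, Eno1, Pkm and Adm), where 9.95% of all genes were, and Slc2a1 lower, where 8.55% were. Among other capillary ECs 2 of 18 were higher, where 189 of all 5257 genes were, and 1 lower, where 119 were.

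The lower genes of EC-Ang2 members were led by Scgb3a1. It was at 6931 CPM in Ctrl and 1047 in EC-Ang2 members (log2 -2.73, -2.86 to -2.60) and at 2996 and 2109 in other capillary ECs (log2 -0.51), and was counted in 93.2% of Ctrl and 74.2% of EC-Ang2 members. Plat, the tissue plasminogen activator, was at 775 and 214 CPM (log2 -1.85, -2.18 to -1.54), and Mall, a membrane raft protein, at 200 and 56.6 (log2 -1.82, -2.48 to -1.19). Both had smaller ratios in other capillary ECs, of -0.43 and -0.19. Rgs5, a regulator of G protein signaling and a pericyte gene, was at 260 and 54.9 CPM. It made up most of the summed mural level given above, which was also higher in Ctrl, and the part of mural RNA in this value was not tested. S100a9, a neutrophil gene, had 117 UMIs in Ctrl members, 112 of them in 1 cell, and 68 in EC-Ang2, and its direction turned without the highest cell of each library (log2 0.91). Mgp was at 515 and 194 CPM in members (log2 -1.41, -1.77 to -1.05) but at 375 and 973 in other capillary ECs (log2 1.38), and 86 of its 162 Ctrl UMIs lay in 1 cell. Without the highest cell of each library its log2 ratio in members was -0.75 (-1.21 to -0.28).

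The calls in members overlapped in part with those in other capillary ECs, each time by more than the share of all genes called. Among 1663 genes measured in both classes for the blockade pair, 20 higher genes were shared, 11.3% of the member calls and 48.8% of those in other capillary ECs, and 18 lower genes, 12.9% and 42.9%. Of all 1663 genes 41 were higher and 42 lower in other capillary ECs, and 177 and 139 in members. For the overexpression pair the shared genes were 70 higher (26.8% and 57.9%) and 32 lower (13.9% and 60.4%) of 2702. Of all 2702 genes 121 were higher and 53 lower in other capillary ECs, and 261 and 231 in members. The members hold far fewer UMIs than the other capillary ECs, and no call in 1 class and not the other was tested as a difference.

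The calls of the pairs were set side by side over 1659 genes measured in both. Of these 15 were higher in Ang2 Ab and lower in EC-Ang2, 8.47% of the former calls and 12.7% of the latter, where 118 of all 1659 genes were lower in EC-Ang2 and 177 higher in Ang2 Ab, so that the overlap is near the background. There were 21 that were lower in Ang2 Ab and higher in EC-Ang2, 15.2% and 15.6% of the calls, where 138 of all genes were lower in Ang2 Ab and 135 higher in EC-Ang2. Higher in both were 23 genes (13.0% and 17.0%), and lower in both 19 (13.8% and 16.1%). The pairs differ in strain, age, time point and dose of pertussis toxin. Ranked by the smaller in size of a gene's log2 ratios, Scgb3a1 had the largest opposite difference, at 2.15 and -2.73. Its level in members of the control libraries was 1003 CPM in mIgG1 and 6931 in Ctrl. Car2 was at 250 and 101 CPM in mIgG1 and Ang2 Ab (log2 -1.31, -2.02 to -0.63), opposite to its higher level in EC-Ang2, and Clec14a, an EC lectin of angiogenesis, at 169 and 86.5 CPM (log2 -0.97, -1.77 to -0.20) and at 108 and 302 in Ctrl and EC-Ang2 (log2 1.48, 0.95 to 2.06). Rnase4, Rpap3 and Hist1h2bc followed the pattern of Car2, with log2 ratios of -1.38 and 1.39, -1.41 and 1.26, and -1.19 and 1.38. Plaur, the urokinase receptor, Fas, a death receptor, Mall and Mgp followed that of Scgb3a1, and Plaur was at 129 and 299 CPM in the blockade pair and 600 and 307 in the overexpression pair. Other capillary ECs had differences of the same sign for Scgb3a1, Rnase4, Car2, Rpap3, Hist1h2bc, Clec14a and Fas in both pairs, and of the opposite sign for Mgp in EC-Ang2. For Mall and Plaur their log2 ratios were within 0.26 of 0 in both pairs.

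**Figure D5:**
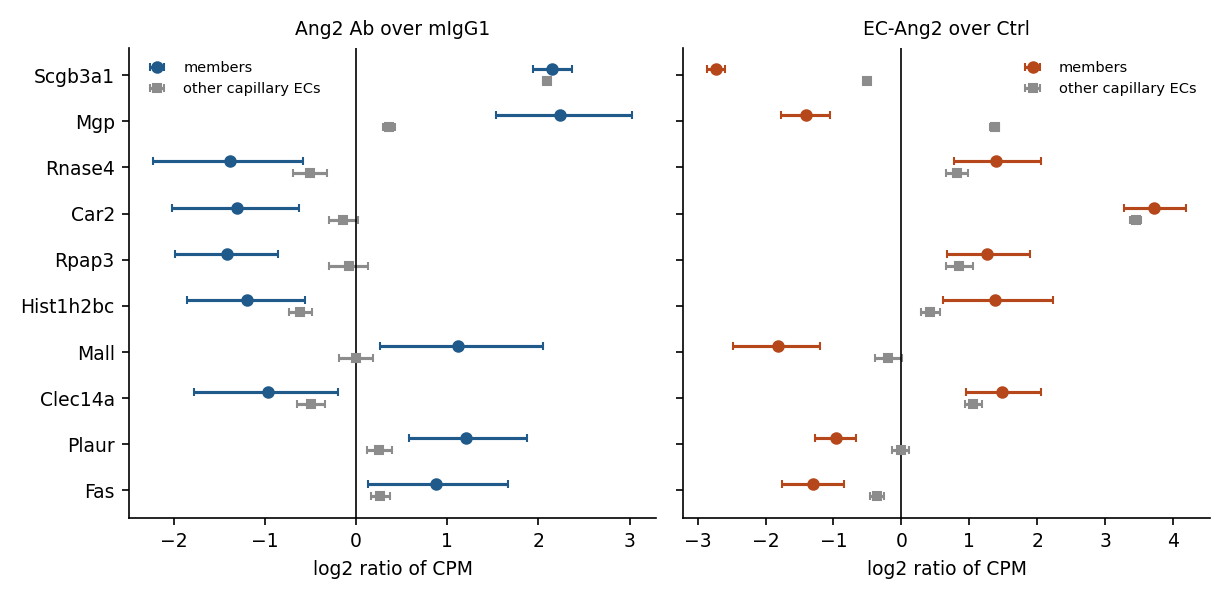
Log2 ratio of Ang2 Ab over mIgG1 (left) and of EC-Ang2 over Ctrl (right) for the 10 named genes that differed in opposite directions, in members (colored circles) and other capillary ECs (gray squares), with exact 95% intervals for counting error. Scgb3a1 lies at 2.15 and -2.73 in members and at 2.09 and -0.51 in other capillary ECs, and Mgp in EC-Ang2 lies on opposite sides of 0 in the 2 classes.

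Of 7 leukocyte adhesion genes measured in members of the blockade pair Icam1 was higher, where 10.7% of all genes were, and Vcam1 and Jam2 lower, where 8.45% were. Of 7 in the overexpression pair only Icam1 was higher, where 9.95% of all genes were. Vcam1 was at 303 CPM in mIgG1 and 177 in Ang2 Ab members (log2 -0.78, -1.34 to -0.23) and at 225 and 290 in Ctrl and EC-Ang2 (log2 0.36, -0.05 to 0.78). In other capillary ECs the Vcam1 log2 ratios were -0.81 and 1.59. Icam1 was at 134 and 209 CPM in the blockade pair (log2 0.64, -0.02 to 1.33) and at 165 and 249 in the overexpression pair (log2 0.59, 0.12 to 1.08).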

How the data were processed

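The deposited files were gene-by-barcode matrices of raw UMI counts, 1 per library, with all 737280 barcodes of the whitelist kept, which the authors made from 10x Chromium 3′ v2 libraries. The submitters' processing notes name Cell Ranger 2.1.1, Seurat 2.3.4 and mm10. Library totals ran from 52084739 to 66631583 UMIs over 27998 genes.

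Counts were read with Python 3.11.15, numpy 2.4.6, scipy 1.17.1 and pandas 2.3.3, and the gate was applied to each barcode. UMIs were summed over the cells of a class in a library and divided by that sum of all UMIs (CPM). Ratios have exact conditional binomial intervals, and shares exact Clopper-Pearson intervals, both at 95% and for counting error only. Doublets were scored with Scrublet in scanpy 1.11.5 (expected rate proportional to the number of cells) and marked 2 members, which were kept. Cell cycle genes marked a cell with UMIs of at least 3 of 12. Free RNA was estimated from barcodes of at most 100 UMIs. Figures were drawn with matplotlib 3.10.9. The calling code was tested on simulated data.

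Members and gene lists were chosen with earlier results of these data known. Genes were named by rule. Against other capillary ECs these were the 12 higher and 8 lower genes with the largest smallest log2 ratio over the libraries, leaving out genes of the gate. In each pair they were the 8 higher and 8 lower genes by the interval bound nearest 0, and the 10 with the largest smaller size among genes opposite in both pairs. Angpt2, genes of the gate and genes of a list that were called or define it were added. A few of the genes so named are not reported here.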

Additional observations from a re-analysis of the deposited data

Results flagged for a closer look

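Among the 8 higher and 8 lower genes named in each pair, 4 had intervals on opposite sides of 0 in members and in other capillary ECs. Genes named from the lists were not screened in this way. Others with opposite signs include Gbp4 in the blockade pair and Ifit3 in the overexpression pair. Rsad2 had a log2 ratio of Ang2 Ab over mIgG1 of 4.29 (3.43 to 5.31) in members and -0.28 (-0.44 to -0.11) in other capillary ECs, and Slc7a1 had -1.96 (-2.99 to -1.04) and 0.58 (0.47 to 0.69). Hbb-bs had a log2 ratio of EC-Ang2 over Ctrl of 7.82 (6.69 to 9.26) in members and -1.44 (-1.48 to -1.40) in other capillary ECs, and Mgp had -1.41 (-1.77 to -1.05) and 1.38 (1.31 to 1.44). The highest cell held 167 of 266 Rsad2 UMIs in Ang2 Ab members, 2378 of 2504 Hbb-bs UMIs in EC-Ang2 members and 86 of 162 Mgp UMIs in Ctrl members. Without the highest cell of each library the log2 ratios in members were 3.12 for Rsad2, 4.07 for Hbb-bs and -0.75 for Mgp. With 1 library per condition the differences between the classes were not tested.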

How the results depend on the processing

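Of 96 recomputed values that answer a comparison, 71 moved by less than their limit, 24 moved by more and 1 reversed, and of 580 for named genes 533, 44 and 3 did. The limit was the interval of a ratio or 1.5 times a count, and the causes were not tested unless the setting itself shows them. Alternatives on Ackr1 and on the highest cells were chosen after seeing the data.

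The log2 ratio of the member share in Ang2 Ab over mIgG1 was -0.72 with no Ackr1 term, and that of EC-Ang2 over Ctrl was 1.74 with up to 2 Ackr1 UMIs and 2.51 with no Ackr1 term. Against other capillary ECs, 6 genes were higher and 20 lower with depth-matched cells, and 13 were higher and 29 lower at 2-fold. With 200 UMIs required, 39 of the 69 higher and 99 of the 133 lower genes could be measured, and all of these were called. The Angpt2 log2 ratio with the 3 highest cells of each class left out was -0.0059 in mIgG1 and 1.48 in Ang2 Ab, and 0.90 in Ctrl and 0.93 in EC-Ang2. With depth-matched cells it was 1.60 in Ang2 Ab and 0.021 in EC-Ang2, with at least 3000 UMIs per barcode 2.00 in Ang2 Ab, and as a mean of each cell's CPM 1.94 in Ctrl and 1.49 in EC-Ang2. In members, Ang2 Ab against mIgG1 gave 32 higher and 14 lower genes with 200 UMIs required and 42 and 37 at 2-fold, and EC-Ang2 against Ctrl gave 51 and 53, and 108 and 51. Requiring 200 UMIs left 391 of 1669 and 699 of 2714 genes to measure, and every call there was also made with 50. The S100a9 log2 ratio of EC-Ang2 over Ctrl turned to 2.85 with doublets removed and to 0.91 without the highest cell of each library, and that of Ccl5 to -0.48 without it.

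No paired analysis was possible because each condition was 1 library and the values come from no test. The 25 to 66 members per library limit what can be seen. The intervals do not cover variation between mice, and those of levels and their ratios do not cover variation between cells.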

Other observations

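Members with and without Apln differed in other genes than Angpt2. Scgb3a1 was lower in members with Apln in every library, at 334 CPM with and 1119 without Apln in mIgG1, 1227 and 6062 in Ang2 Ab, 2597 and 8019 in Ctrl, and 348 and 1327 in EC-Ang2. Cxcl12 had no common direction, with 60.7 and 256 CPM in mIgG1, 326 and 146 in Ang2 Ab, 143 and 242 in Ctrl, and 426 and 120 in EC-Ang2. These values rest on 4, 8, 7 and 18 members with Apln, and the cells were split by a gene of the gate, so they are given as a description.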
